A study of Mus musculus with 4 samples.

Results

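Blood stem and progenitor cell genes are described here through 10 genes: Cd34, Prom1, Kit, Flt3, Procr, Mecom, Hlf, Erg, Gata2 and Runx1. A probe set is a group of short oligonucleotides on the array that reads 1 or more transcripts. The genes were taken by name, and each was followed by every probe set annotated to that gene alone, 21 probe sets in all. The 10 genes stand among 18193 genes measured by such a probe set. Total RNA from marrow cells of 4 mouse samples, of a C57BL6 series, was put on 1 Affymetrix expression array each. The leukemias arose in mice from blood stem and precursor cells that had been transduced with fusion genes that join MLL, the gene Kmt2a for a histone-modifying enzyme, to AF4, the gene Aff1 for an elongation factor. Marrow was taken when the mice were moribund, after several months. The mixed lineage leukemia had received AF4-MLL together with its reciprocal, MLL-AF4. AF4-MLL alone was given in the other leukemias, a proB lymphoblastic one (proB ALL) and a biphenotypic one with B and T features (B/T BAL). The 4th sample was control marrow of normal immunophenotype, and the labels name no transduction for it. Cells were typed by flow cytometry and not sorted, so each array read whatever cells the marrow held. The sources used here give neither ages nor whether several mice were pooled. Every group was 1 array without a replicate, and single-array values carry no replicate error.

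Blood stem cells sit at the top of the marrow's hierarchy and give rise to progenitors that commit to the red, platelet, myeloid or lymphoid lineages. Cd34 and Prom1 encode surface glycoproteins by which such immature cells are sorted, Kit and Flt3 are receptor tyrosine kinases that bind stem cell factor and FLT3 ligand, and Procr is a receptor of protein C that marks stem cells in mouse marrow. Mecom, Hlf, Erg, Gata2 and Runx1 are transcription factors needed for the formation or maintenance of stem cells, and most of them are also used by particular mature lineages. MLL fusions are known for turning on genes of the stem and progenitor state in leukemia.

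Signals are MAS5 signals on a linear scale, and differences are given as log2(signal + 51.4), leukemia minus normal marrow unless stated. A signal of 189, the median over all arrays, is called the floor. A fold is a ratio of signals, and a side at or below the floor is counted at the floor and the fold written as "at least". Counts of genes at least 2-fold higher or lower take a log2 difference of 1 or more on that scale, which a dim gene can reach without a 2-fold ratio above the floor, so counts by the ratio are given beside them. Of the 10 genes, 8 exceeded the floor on at least 1 array. Procr and Mecom lay below it on all 4 arrays and give no direction.

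The arrays were checked against their labels and for quality. The share of probe sets brighter than the floor was 57.4% for mixed lineage leukemia and 46.3% to 49% for the other arrays. B-cell precursor markers summed to 4451 with mixed lineage leukemia, 3232 with proB ALL and 948 with B/T BAL, against 23847 in normal marrow. Of 6 such markers, 4 (Pax5, Ebf1, Vpreb1 and Igll1) lay below the floor in the leukemia labelled proB ALL, where 4 of 4 natural killer cell markers exceeded normal marrow at least 2-fold. Cd79a and Cd79b, parts of the B-cell receptor, had 426 and 2484 there. The array labelled mixed lineage had 6 of 6 myeloid markers and 2 of 6 B-cell markers above the floor. The array labelled B/T BAL had 6 of 6 T-cell markers and 2 of 6 B-cell markers above it.

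The 10 genes did not move as 1 group. On the mixed lineage array 3 of the 10 (Prom1, Erg and Gata2) exceeded the normal array at least 2-fold and 2 (Cd34 and Hlf) were at least 2-fold lower. Of all 14012 tested genes, 18.8% were that much higher there and 15.2% that much lower. Higher genes thus made up 55.3% of these, but 43.5% under quantile normalization. On the proB ALL array 0 were at least 2-fold higher and 5 (Cd34, Prom1, Hlf, Erg and Gata2) at least 2-fold lower, beside 11.3% and 18.7% of all tested genes. On the B/T BAL array 1 (Runx1) was at least 2-fold higher and 7 were at least 2-fold lower, beside 15.4% and 17.7%. By the ratio of signals the counts of the 10 genes were the same on each array. The shares of all tested genes were then 10.9% higher and 13% lower with mixed lineage leukemia, 10.4% and 14.7% with proB ALL, and 13.2% and 15.1% with B/T BAL. The median log2 difference over all 10 was 0.17 with mixed lineage leukemia, -1.49 with proB ALL and -1.97 with B/T BAL. Over the 8 that passed the floor it was 0.17, -2.33 and -2.31, beside 0.08, -0.11 and 0.05 over all tested genes. Only genes that are bright on some array passed, so the second set of medians is a description. The 3 comparisons share the 1 normal array.

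**Figure D1:**
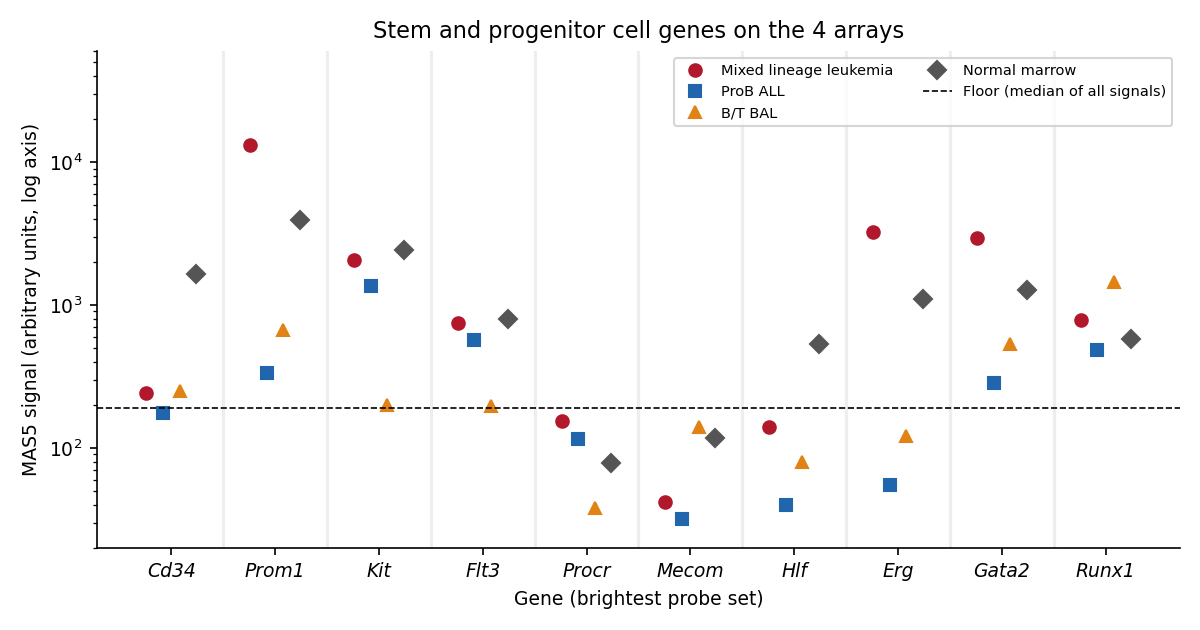
MAS5 signal of each gene by its brightest probe set (log axis, arbitrary units) on the arrays of the 3 leukemias and of normal marrow, 1 point per array, with the floor of 189 as a dashed line. Prom1, Erg and Gata2 are highest on the mixed lineage array, Cd34, Hlf, Kit and Flt3 on the normal array, and Procr and Mecom lie below the floor throughout. Levels of different genes cannot be set against each other on this scale.

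Cd34, the sialomucin used to isolate human and mouse progenitors, was lower in all 3 leukemias by similar amounts. Its probe set 1416072_at had signals of 244 with mixed lineage leukemia, 175 with proB ALL and 252 with B/T BAL, against 1641 in normal marrow. The proB ALL signal was below the floor and the other leukemias were just above it, while normal marrow stood apart from all 3. The signal was 6.71-fold lower in mixed lineage leukemia, at least 8.7-fold lower in proB ALL and 6.5-fold lower in B/T BAL than in normal marrow. In the fit of all leukemias against normal marrow the log2 difference was -2.63 ± 0.81 (SE, 3 arrays against 1). Its limma adjusted p over all tested genes was 0.938, and its unadjusted p in limma was 0.013. Of all tested genes, 1.81% had a lower value in that fit.

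Hlf, a transcription factor of the PAR bZIP family expressed in stem cells and switched off as they differentiate, was above the floor in normal marrow alone. Its probe set 1434735_at had 139 with mixed lineage leukemia, 39.6 with proB ALL and 79.7 with B/T BAL, against 532 in normal marrow, at least 2.82-fold lower in each leukemia. The other probe set, 1434736_at, was below the floor on all 4 arrays and had the same side, with 43.6, 18.6 and 47.3 in the mixed lineage, proB and B/T leukemias against 167 in normal marrow. The fitted log2 difference was -2.15. Hlf passed the filter through the normal array alone, which fixes a lower side, so this value is a description.

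Cd34 and Hlf were thus the 2 of 10 genes at least 2-fold lower on all 3 leukemia arrays, beside 4.45% of all tested genes, and 0 of 10 were at least 2-fold higher on all 3, beside 1.31%. By the ratio of signals the counts of 2 and 0 were the same, beside 594 and 98 of 14012 tested genes. Hlf was tested only through its normal marrow signal, so its place here is a description. With Kit and Flt3 added to Cd34 and Hlf, 4 of 10 were lower by any amount on all 3, beside 19.2%. In whole marrow, fewer cells of a type and less RNA per cell cannot be told apart. The sequences at the starts of these 2 genes are shown because both were lower on the same arrays, with capitals marking the letters CCGGAA or CAGGAA of the ETS motif on either strand. The windows run from 250 bases before to 50 after the start, from RefSeq on GRCm38.p6, at chr1:194938571-194938870 on the plus strand for Cd34 and at chr11:90390868-90391167 on the minus strand for Hlf, 5' to 3' along the gene.
Cd34: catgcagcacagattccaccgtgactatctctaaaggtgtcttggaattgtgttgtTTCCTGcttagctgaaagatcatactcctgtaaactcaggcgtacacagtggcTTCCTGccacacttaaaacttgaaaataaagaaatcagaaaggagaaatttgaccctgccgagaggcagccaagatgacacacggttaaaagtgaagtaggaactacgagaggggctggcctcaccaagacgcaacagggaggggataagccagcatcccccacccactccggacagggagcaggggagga
Hlf: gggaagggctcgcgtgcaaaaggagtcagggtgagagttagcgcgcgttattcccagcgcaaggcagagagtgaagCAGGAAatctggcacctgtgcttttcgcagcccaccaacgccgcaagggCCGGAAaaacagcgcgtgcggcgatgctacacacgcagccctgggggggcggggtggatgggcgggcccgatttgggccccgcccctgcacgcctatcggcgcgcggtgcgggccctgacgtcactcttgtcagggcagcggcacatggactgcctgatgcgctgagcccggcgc
Each window held 2 such matches, which 41.4% of all 32851 promoter windows hold at least once. The Cd34 window had 7 CpG dinucleotides, equal to the median of all windows, and the Hlf window had 30, more than 88.3% of all windows. A match describes letters and not a bound site.

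Prom1, Erg and Gata2 had a second pattern, high on the mixed lineage array and low on the other leukemia arrays. The array with both fusions was also the only one of mixed lineage immunophenotype. Fusion, immunophenotype and sample therefore cannot be told apart in any comparison of both fusions with AF4-MLL alone. Prom1 encodes prominin 1 (CD133), a pentaspan protein of membrane protrusions that marks stem cells in several tissues. Its only probe set, 1419700_a_at, had 13201 with mixed lineage leukemia, 335 with proB ALL and 668 with B/T BAL, against 3926 in normal marrow. All 4 signals lay above the floor, and the mixed lineage array stood above all others. With both fusions the signal exceeded that of proB ALL 39.4-fold, that of B/T BAL 19.8-fold and that of normal marrow 3.36-fold. The signal was 11.7-fold lower in proB ALL and 5.88-fold lower in B/T BAL than in normal marrow. On the mixed lineage array 92.9% of tested genes had a smaller difference from normal marrow than Prom1, whereas on the proB ALL array 1.96% did.

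Erg, an ETS-family factor required for stem cell self-renewal and also made by endothelium and megakaryocytes, gave the same order of arrays. Its probe set 1440244_at had 3214 with mixed lineage leukemia, 55.3 with proB ALL and 122 with B/T BAL, against 1097 in normal marrow. Both leukemias with AF4-MLL alone were below the floor. With both fusions the signal exceeded that of normal marrow 2.93-fold and that of either AF4-MLL-alone leukemia at least 17-fold. Each AF4-MLL-alone leukemia was at least 5.82-fold below normal marrow. The other probe set, 1425370_a_at, exceeded the floor on the mixed lineage array alone, with 201 there, 35.8 with proB ALL and 14 with B/T BAL, against 14.3 in normal marrow. By that probe set normal marrow was therefore as dim as the AF4-MLL-alone leukemias.

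Gata2, a zinc-finger factor of stem cells, early progenitors and mast cells, was read alike by both of its probe sets. Probe set 1450333_a_at had 2925 with mixed lineage leukemia, 285 with proB ALL and 532 with B/T BAL, against 1270 in normal marrow. Probe set 1428816_a_at had 1564, 57.1 and 105 in the mixed lineage, proB and B/T leukemias, against 595 in normal marrow. By the first probe set the signal with both fusions exceeded that of proB ALL 10.2-fold, that of B/T BAL 5.5-fold and that of normal marrow 2.3-fold. The first probe set was 4.45-fold lower in proB ALL and 2.39-fold lower in B/T BAL than in normal marrow.

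These 3 of 10 genes were at least 2-fold higher in mixed lineage leukemia than in both AF4-MLL-alone leukemias, beside 18.9% of all tested genes, and 0 of 10 were at least 2-fold lower than in both, beside 10.1%. By the ratio of signals the counts of 3 and 0 were the same, beside 1680 and 1236 of 14012 tested genes. In the limma fit of both fusions against AF4-MLL alone (1 array against 2), the log2 difference was 4.65 ± 0.67 for Prom1, 4.58 ± 0.84 for Erg and 2.75 ± 0.77 for Gata2 (SE). Unadjusted p-values in limma were 0.00105, 0.00293 and 0.0167, beside 12.3% of all tested genes that were higher at an unadjusted p under 0.05. Adjusted p-values in limma were 0.151, 0.151 and 0.194, none past 0.05, and 0% of all tested genes passed. Prom1 and Erg shared the smallest adjusted p over all genes with others, among them Nfe2, Lmo2 and Cd27. Of these Cd27 was lower with both fusions. Erg passed in 1 alternative, where dim signals were set to the floor (adjusted p = 0.04 in limma). There both AF4-MLL-alone arrays take the same value, so by construction the gene has no residual spread. Of all tested genes 99.8% had a smaller difference than Prom1 or Erg and 97.1% a smaller one than Gata2.

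**Figure D2:**
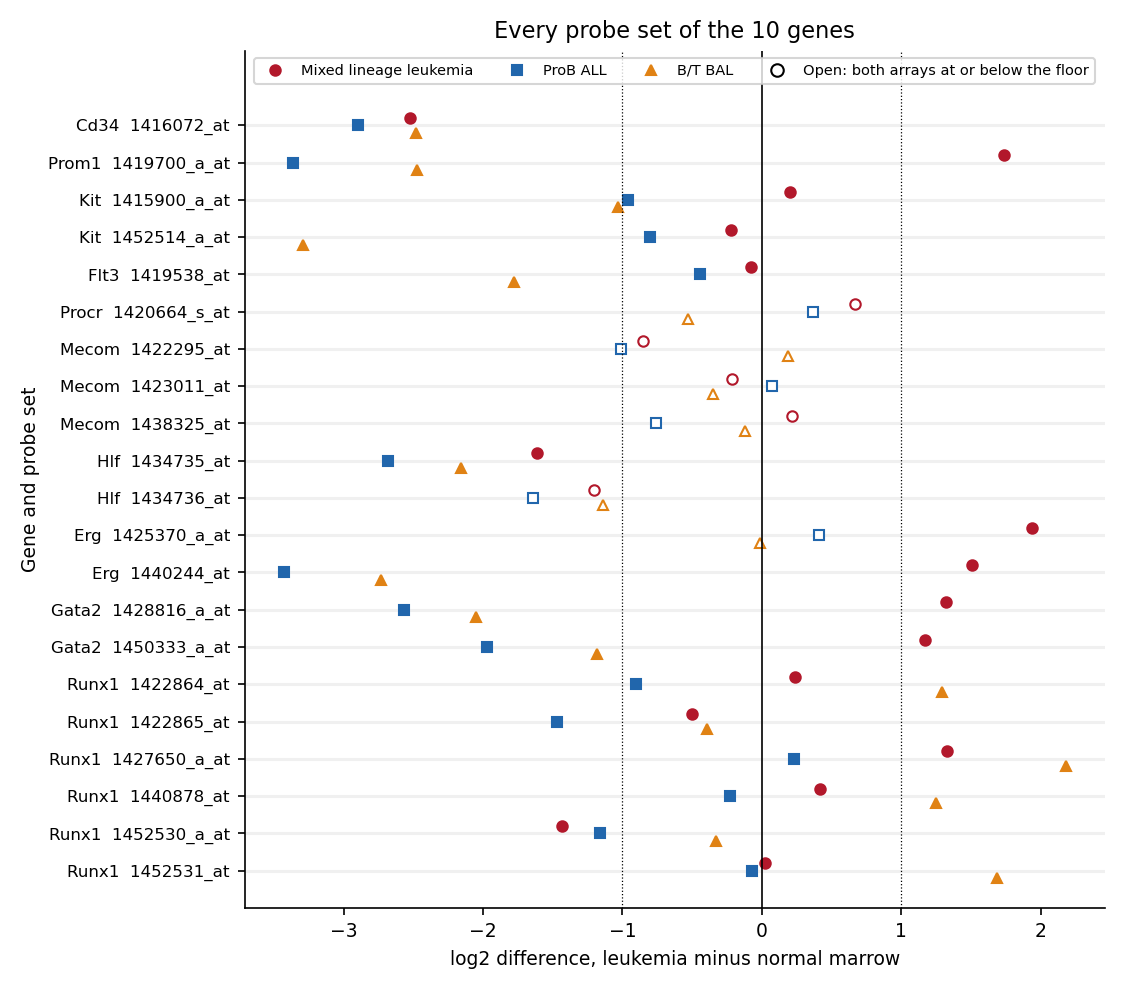
log2 difference from normal marrow (horizontal) of all 21 probe sets of the 10 genes (rows) in the mixed lineage, proB and B/T leukemias, 1 point per array, with dotted lines at a 2-fold difference. Open points have both arrays at or below the floor. The points of Prom1, Gata2 and Erg 1440244_at lie right of 0 in mixed lineage leukemia and left of it in the other leukemias, and the 6 probe sets of Runx1 are spread to both sides.

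Most mast cell and basophil markers were also high on the mixed lineage array. Of 7 markers (Cpa3, Ms4a2, Fcer1a, Hdc, Mcpt8, Tpsb2 and Cma1), 6 had a log2 difference of 1 or more from normal marrow there, and 5 a ratio of 2 or more, without Tpsb2 (246, against 62.6 in normal marrow). Their summed signal was 69186 with mixed lineage leukemia, 1723 with proB ALL and 5212 with B/T BAL, against 18478 in normal marrow, the same order of arrays as for Prom1, Erg and Gata2. Mcpt8, a basophil protease, had 39892 with mixed lineage leukemia, 238 with proB ALL and 1478 with B/T BAL, against 9174 in normal marrow. Not all markers had this order. Cma1, a mast cell chymase, had 105 with mixed lineage leukemia, 793 with proB ALL and 158 with B/T BAL, against 140 in normal marrow, and was thus highest where Gata2 was lowest. Cpa3, a mast cell carboxypeptidase, had 2567 with B/T BAL, against 2559 in normal marrow. Ms4a2, Fcer1a, Hdc and Tpsb2 lay below the floor on the proB ALL array. Myeloid markers had the same order, with a summed signal of 272271 with mixed lineage leukemia, 29947 with proB ALL and 82701 with B/T BAL, against 169551 in normal marrow over 6 genes. The part of either cell type in the signals of Prom1, Erg and Gata2 was not tested.

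Endothelial cells also make Erg, Cd34 and Procr. Of the 9 endothelial and stromal markers, 4 were above the floor on each leukemia array and 7 on the normal array, and the summed signal was 6850 with mixed lineage leukemia, 3269 with proB ALL and 73073 with B/T BAL, against 8510 in normal marrow. Cdh5, Kdr, Emcn, Tek and Tie1 of this list were below the floor in all 3 leukemias. Pecam1, another endothelial marker of the list, was above the floor on every array. It had 308 with mixed lineage leukemia, 324 with proB ALL and 978 with B/T BAL, against 768 in normal marrow. In normal marrow Emcn and Tie1 were below the floor, and Cdh5 had 419 and Kdr 358. Most of the B/T BAL sum came from the stromal genes Col1a2 and Pdgfrb, with signals of 38648 and 30356 there. The part of endothelial cells in the signals of Erg, Cd34 and Procr was not tested.

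The windows before the starts of Prom1, Erg and Gata2 are shown because these genes shared an order of arrays, with capitals for the letters TGTGGT of the RUNX motif. They lie at chr5:44101687-44101986 on the minus strand for Prom1, chr16:95586544-95586843 on the minus strand for Erg and chr6:88193641-88193940 on the plus strand for Gata2 (RefSeq, GRCm38.p6), each at the outermost of 2, 3 and 2 annotated starts.
Prom1: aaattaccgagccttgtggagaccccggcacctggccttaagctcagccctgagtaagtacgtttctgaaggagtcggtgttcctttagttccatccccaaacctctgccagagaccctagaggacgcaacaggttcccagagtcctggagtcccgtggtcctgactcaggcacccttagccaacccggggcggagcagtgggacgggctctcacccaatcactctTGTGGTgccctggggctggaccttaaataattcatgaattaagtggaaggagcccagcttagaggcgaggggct
Erg: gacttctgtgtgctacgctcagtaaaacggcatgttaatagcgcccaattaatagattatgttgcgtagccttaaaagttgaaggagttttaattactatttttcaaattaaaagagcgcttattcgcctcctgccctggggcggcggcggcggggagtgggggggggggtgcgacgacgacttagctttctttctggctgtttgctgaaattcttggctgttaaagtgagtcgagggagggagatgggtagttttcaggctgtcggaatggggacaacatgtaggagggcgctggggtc
Gata2: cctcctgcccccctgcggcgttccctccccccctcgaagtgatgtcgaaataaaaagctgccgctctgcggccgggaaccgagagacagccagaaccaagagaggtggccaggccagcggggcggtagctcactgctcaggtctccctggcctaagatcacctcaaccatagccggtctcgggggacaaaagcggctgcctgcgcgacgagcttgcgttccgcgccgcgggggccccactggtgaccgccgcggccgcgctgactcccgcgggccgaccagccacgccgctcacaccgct
Prom1 held 1 RUNX match (TGTGGT or TGCGGT on either strand), at position -24 from the start, and 22.4% of all windows hold one. Neither Erg nor Gata2 held a match to any of the 6 motifs searched. Beside ETS and RUNX these were a motif of GATA factors with the letters AGATAA or TGATAA (18.6% of all windows), the E-box with CAGCTG or CATCTG (30.6%), the MEIS motif with TGACAG (19.2%) and the PAR bZIP motif with TTACGTAA or TTATGTAA (1.06%), on both strands. No matches of different motifs overlapped in the members' windows. The 3 windows differed in base composition, with 10 CpG dinucleotides in Prom1, 16 in Erg and 32 in Gata2. Over all 10 genes, 3 windows held an ETS match, 3 a RUNX match, 3 an E-box match, 1 a GATA match and 0 a MEIS or PAR bZIP match.

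Kit and Flt3, the receptors through which stem cell factor and FLT3 ligand sustain progenitors, had another pattern again. Kit by probe set 1452514_a_at had 2061 with mixed lineage leukemia, 1366 with proB ALL and 201 with B/T BAL, against 2413 in normal marrow. Only the B/T BAL array stood far from the others, 12-fold below normal marrow and near the floor, and 1.62% of tested genes had a lower difference there. Mixed lineage leukemia and proB ALL were 1.17-fold and 1.77-fold lower than normal marrow, both under 2-fold. The dimmer probe set, 1415900_a_at, was above the floor on 2 arrays, with 272 with mixed lineage leukemia, 94.1 with proB ALL and 86.6 with B/T BAL, against 231 in normal marrow.

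Flt3, by its only probe set 1419538_at, had 752 with mixed lineage leukemia, 572 with proB ALL and 195 with B/T BAL, against 796 in normal marrow. The order of the arrays was that of Kit, with B/T BAL at the floor and 4.08-fold below normal marrow. Mixed lineage leukemia and proB ALL were 1.06-fold and 1.39-fold lower than normal marrow. Between the leukemias with AF4-MLL alone, proB ALL was 6.79-fold higher than B/T BAL for Kit and 2.93-fold higher for Flt3, a comparison of 1 array with 1 and without a test. The fit of both fusions against AF4-MLL alone gave 1.82 ± 1.19 for Kit and 1.04 ± 0.95 for Flt3 (SE), with unadjusted p-values of 0.188 and 0.325 in limma.

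Kit is also made by mast cells and Flt3 by dendritic cells. On the proB ALL array, where Kit had 1366, the mast cell and basophil sum was the lowest of the 4 arrays, while the mast cell gene Cma1 was highest there with 793. The part of mast cells in the Kit signals was not tested. The summed signal of 5 dendritic cell markers was 3068 with mixed lineage leukemia, 6304 with proB ALL and 5932 with B/T BAL, against 3848 in normal marrow, an order unlike that of Flt3. On the B/T BAL array Siglech, Zbtb46 and Xcr1 of these markers were below the floor, Xcr1 as on every other array. The remaining markers, Ccr9 and Bst2, were above normal marrow there, with 3859 against 713 and 1849 against 1504, and made up most of the sum. The part of dendritic cells in the Flt3 signals was not tested.

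Of the partners of these receptors, Kitl, which encodes stem cell factor, had 930 with mixed lineage leukemia, 363 with proB ALL and 314 with B/T BAL, against 801 in normal marrow. It was 2.21-fold lower in proB ALL and 2.55-fold lower in B/T BAL. Among 16 genes of Kit and Flt3 ligands and signalling, 1 was at least 2-fold higher and 1 lower in mixed lineage leukemia, 2 higher and 5 lower in proB ALL, and 1 higher and 9 lower in B/T BAL. The ratio of signals gave the same counts. The shares of all tested genes were 18.8% higher and 15.2% lower, 11.3% and 18.7%, and 15.4% and 17.7% on these arrays. The median log2 differences of the 16 genes were 0.01, -0.45 and -1.04, beside 0.08, -0.11 and 0.05 over all tested genes. Socs2, a feedback inhibitor of cytokine receptors, had 314 with mixed lineage leukemia, 12227 with proB ALL and 142 with B/T BAL, against 479 in normal marrow, 25.6-fold higher in proB ALL than in normal marrow. Fes, a cytoplasmic tyrosine kinase of myeloid cells, had 5748, 1186 and 813 in the same leukemias, against 4870 in normal marrow. Cbl, a ubiquitin ligase that marks activated receptors for breakdown, had 10390, 5964 and 5363, against 3822. Shc1, an adaptor of receptor kinases, had 1136, 904 and 954, against 2100. Of these 16 genes 0 passed the adjusted threshold in limma for leukemia against normal marrow.

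Runx1, the DNA-binding subunit of core binding factor, needed for the emergence of blood stem cells and used again in T cells and megakaryocytes, was highest in B/T BAL by 4 of its 6 probe sets. Probe set 1440878_at, the brightest on average, had 788 with mixed lineage leukemia, 482 with proB ALL and 1440 with B/T BAL, against 576 in normal marrow. B/T BAL was 2.5-fold above normal marrow by this probe set, and the other leukemias were within 2-fold of it. Probe set 1427650_a_at had 719, 308 and 1341 in the mixed lineage, proB and B/T leukemias, against 255 in normal marrow, 5.25-fold higher in B/T BAL. Probe sets 1422864_at and 1452531_at were 2.64-fold and 3.77-fold higher in B/T BAL. The remaining probe sets ran the other way: 1422865_at had 332 in B/T BAL against 451 in normal marrow, and 1452530_a_at had 328 against 424. In mixed lineage leukemia the 6 probe sets ranged from -1.43 to 1.33 on the log2 scale, so Runx1 had no single direction there. In proB ALL they ranged from -1.47 to 0.23, with 2 at least 2-fold lower and 0 at least 2-fold higher. With the mean over probe sets the B/T BAL difference was 0.95, just under 2-fold.

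T-cell markers were highest on the same array. The summed signal of 6 of them (Cd3d, Cd3e, Cd3g, Cd8a, Ptcra and Cd2) was 2428 with mixed lineage leukemia, 28541 with proB ALL and 108263 with B/T BAL, against 3181 in normal marrow, and 6 of 6 were at least 2-fold higher in B/T BAL. In proB ALL, the leukemia with the next highest sum, Cd3e, Cd8a and Ptcra lay below the floor. Cd3d, Cd3g and Cd2 went the other way, with 12582, 3290 and 12388 there, against 1002, 632 and 746 in normal marrow. Runx1 did not exceed normal marrow in proB ALL by 5 of 6 probe sets. The part of T-lineage cells in the Runx1 signal was not tested. Cbfb, which binds Runx1 and steadies its hold on DNA, had 17544 with mixed lineage leukemia, 13667 with proB ALL and 11253 with B/T BAL, against 10456 in normal marrow, all within 2-fold.

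Mecom and Procr were not detected above the floor. The 3 probe sets of Mecom, which encodes the EVI1 zinc-finger factor, ranged from 18.3 to 63.4 with mixed lineage leukemia, 7.14 to 33 with proB ALL and 11.8 to 141 with B/T BAL, against 29.2 to 117 in normal marrow. Procr, by its only probe set 1420664_s_at, had 154 with mixed lineage leukemia, 116 with proB ALL and 38.1 with B/T BAL, against 78.1 in normal marrow. At these signals a low level cannot be separated from none, and normal marrow, which holds stem cells, was no higher than the leukemias taken as a range. The name of the Procr probe set marks it as one that may bind more than 1 transcript. Prdm16, the closest relative of Mecom, had 345 with mixed lineage leukemia, 51 with proB ALL and 297 with B/T BAL, against 18.8 in normal marrow, above normal marrow by at least 1.83-fold with mixed lineage leukemia and at least 1.58-fold with B/T BAL.

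Other transcription factors of stem cells had both higher and lower genes on each array. Among 19 other stem cell transcription factors 3 were at least 2-fold higher and 5 lower in mixed lineage leukemia, 1 higher and 9 lower in proB ALL, and 5 higher and 9 lower in B/T BAL, with medians of 0.33, -0.89 and -0.57 beside the 0.08, -0.11 and 0.05 of all tested genes. By the ratio of signals 2 were higher and 5 lower in mixed lineage leukemia, 1 and 8 in proB ALL, and 4 and 7 in B/T BAL. All tested genes also leaned to the lower side in proB ALL and B/T BAL, with the shares given above. Mixed lineage leukemia was at least 2-fold above both AF4-MLL-alone leukemias for 9 of the 19 (Fli1, Gfi1b, Lmo2, Lyl1, Meis1, Mycn, Nfe2, Spi1 and Tal1), beside the 18.9% over all tested genes, and below both for 1. By the ratio of signals these counts were also 9 and 1, beside 1680 and 1236 of 14012 tested genes. Lmo2, a bridging protein of stem cell and erythroid transcription complexes, had 5670 with mixed lineage leukemia, 638 with proB ALL and 823 with B/T BAL, against 15512 in normal marrow. Nfe2, a bZIP factor of megakaryocytes and red cells, had 13334, 439 and 1150 in the same leukemias, against 17027. Fli1, the closest relative of Erg, had 9712, 4646 and 2589, against 3861, and was 2.52-fold higher in mixed lineage leukemia than in normal marrow. Tal1, a basic helix-loop-helix factor of stem cells and the red cell lineage, had 749, 145 and 214, against 17694. Gfi1b, a repressor of the red cell and platelet lineages, had 486, 169 and 126, against 8632. Gata1, the red cell relative of Gata2, had 332, 63.8 and 326, against 9009, the opposite side from Gata2 in mixed lineage leukemia. Gata3, the T-cell relative, had 76.1, 432 and 2567, against 29.3. Zfpm1, a cofactor of GATA factors, had 282, 1025 and 1530, against 5931, and Runx1t1, a corepressor first known as a fusion partner of human RUNX1, had 186, 65.6 and 26.7, against 544. Runx1t1 passed the filter through the normal array alone, which fixes a lower side, so its values are a description. Red cell precursor markers summed to 852 with mixed lineage leukemia, 564 with proB ALL and 1142 with B/T BAL, against 75026 in normal marrow (4 genes), and megakaryocyte markers to 2542, 1887 and 2215, against 32017 (5 genes). Their part in the normal marrow signals of these genes was not tested.

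Of 12 tested surface proteins of stem cells outside the 10 genes, 1 was at least 2-fold higher and 7 lower in mixed lineage leukemia, 2 higher and 6 lower in proB ALL, and 1 higher and 7 lower in B/T BAL. By the ratio of signals 2 were higher and 5 lower in mixed lineage leukemia, 2 and 6 in proB ALL, and 1 and 6 in B/T BAL. The medians were -1.61, -1.07 and -1.52, beside 0.08, -0.11 and 0.05 over all tested genes. Itga2b, an integrin of early stem cells and platelets, had 902 with mixed lineage leukemia, 515 with proB ALL and 886 with B/T BAL, against 2808 in normal marrow. Vwf, a clotting factor made by endothelium, megakaryocytes and platelet-biased stem cells, had 189, 98.7 and 294, against 980. Cd27, a costimulatory receptor of progenitors and lymphocytes, had 54.3 with mixed lineage leukemia, 2000 with proB ALL and 7067 with B/T BAL, against 324 in normal marrow. Tek, the angiopoietin receptor, had 23.1, 87.4 and 39.9, against 200, just above the floor and each leukemia at least 1.06-fold lower. Tek too passed the filter through the normal array alone, so its lower side is a description. Over 16 tested family members and partners, 1 was at least 2-fold higher and 6 lower in mixed lineage leukemia, 4 and 5 in proB ALL, and 3 and 7 in B/T BAL. By the ratio of signals 5 were lower in mixed lineage leukemia, without Pdgfra (47.2, against 170 in normal marrow, both below the floor), and the other counts were the same. The medians were -0.28, 0.14 and -0.85, beside 0.08, -0.11 and 0.05 over all tested genes. Beside these counts and those of the surface proteins, 18.8% of all tested genes were higher and 15.2% lower in mixed lineage leukemia. The shares were 11.3% and 18.7% in proB ALL, and 15.4% and 17.7% in B/T BAL. By the ratio of signals they were 10.9% and 13%, 10.4% and 14.7%, and 13.2% and 15.1% in the same leukemias.

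**Figure D3:**
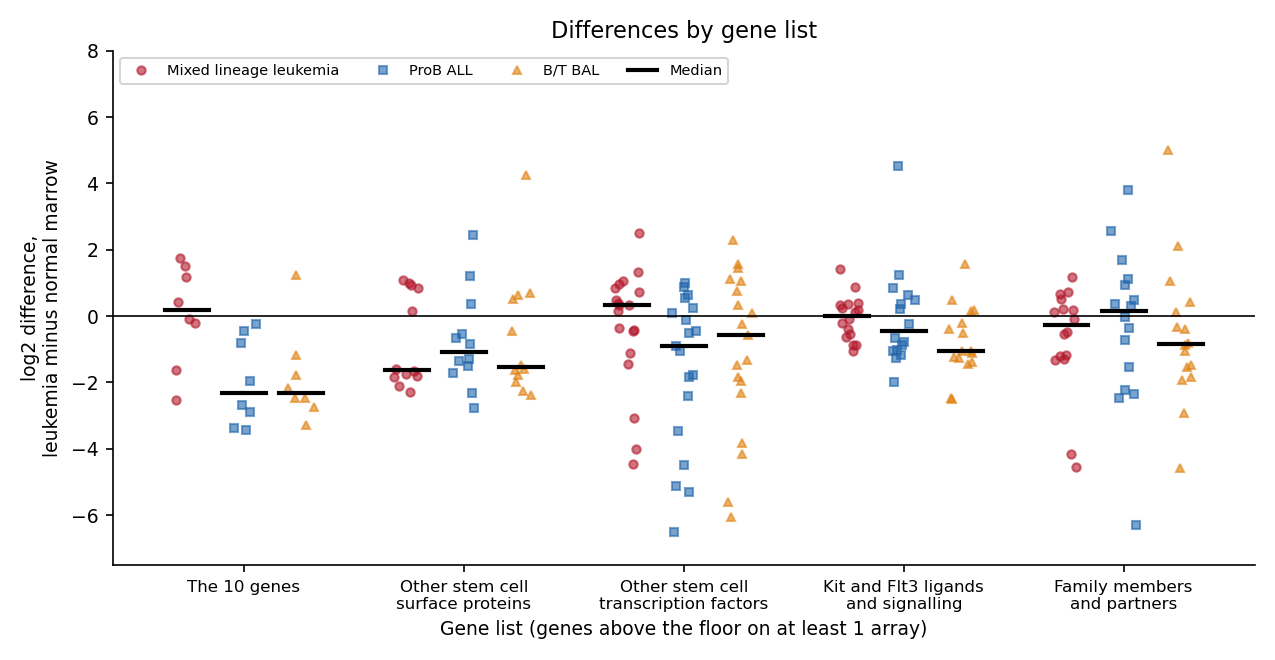
log2 difference from normal marrow (vertical) of each tested gene of the 10 and of 4 comparison lists, in the mixed lineage, proB and B/T leukemias, with black bars at the medians. The 8 tested genes have medians of 0.17, -2.33 and -2.31, and the other transcription factors 0.33, -0.89 and -0.57. Each point is 1 gene, not a replicate.

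Against normal marrow over all 3 leukemias, 0 of the 8 tested genes passed limma's adjusted threshold and 0 of 14012 genes did (0% in each direction). At an unadjusted p under 0.05, Cd34 alone of the 8 was lower and 0 were higher, beside 2.63% and 0.314% of all tested genes. The fitted log2 differences of the others ran from -2.15 for Hlf to 0.48 for Runx1. Prom1, at -1.36 ± 1.75, and Erg, at -1.55 ± 1.76 (SE), had errors larger than their differences, and the leukemias lay on both sides of normal marrow. Without mixed lineage leukemia the difference was -2.91 for Prom1 and -3.08 for Erg, and without proB ALL -0.37 and -0.61.

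**Figure D4:**
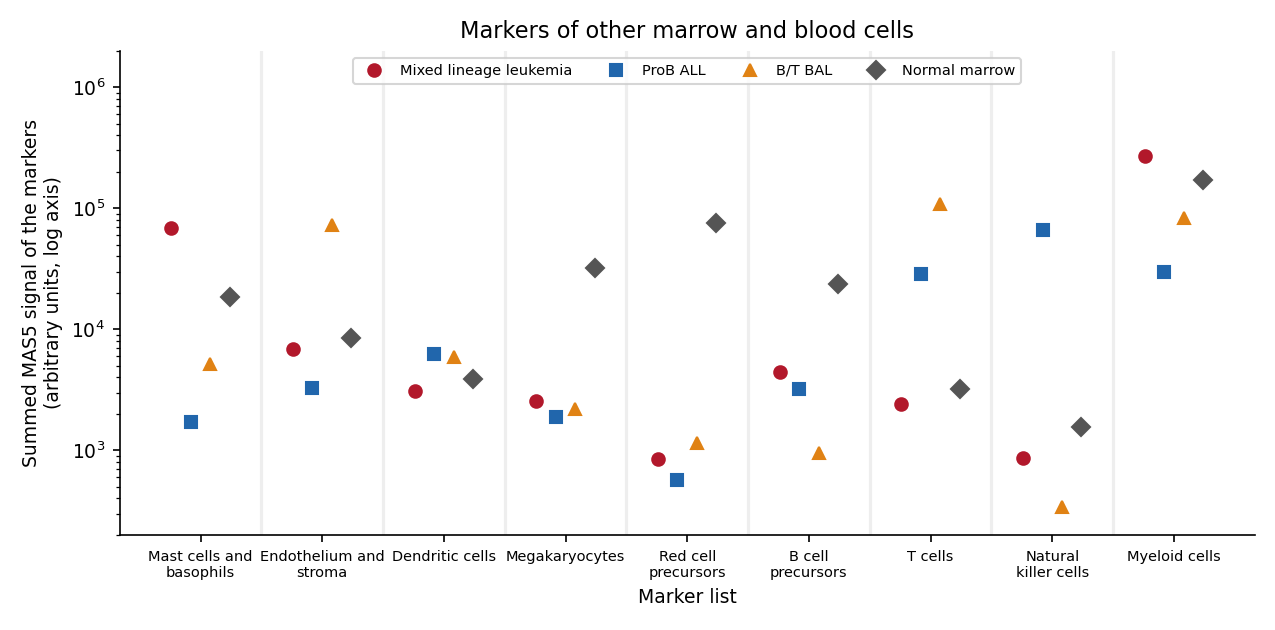
Summed MAS5 signal (log axis, arbitrary units) of marker genes of other marrow and blood cells on the arrays of the 3 leukemias and of normal marrow. Mast cell and myeloid sums are highest in mixed lineage leukemia (69186 and 272271), natural killer sums in proB ALL, T-cell sums in B/T BAL (108263), and red cell sums in normal marrow (75026). Sums of different lists rest on different numbers of genes and are not comparable with each other.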

How the data were processed

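The authors deposited intensity values, linear MAS5 signals for each probe set of 4 arrays, per the submitters' processing notes. The sources used here give no MAS5 version or settings, and detection calls were not used. Of 45101 probe sets, 64 controls were left out. Of the rest, 34945 carried 1 gene symbol in the platform annotation, 932 several and 9160 none in the table used here. From these values log2(signal + 51.4) was computed, 51.4 being the 25th percentile of all signals. A gene is represented by its brightest probe set and was tested if it exceeded 189, the 50th percentile, on at least 1 array.

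Comparisons over several arrays used limma 3.58.1 in R 4.3.3 with an intensity trend and Benjamini-Hochberg adjustment over 14012 genes at 0.05, after a trial on simulated data. Leukemia against normal marrow had 2 residual degrees of freedom and both fusions against AF4-MLL alone had 1, and a lone array was assumed to vary like the others. P-values measure only the spread between these single samples of unlike leukemias. The number of arrays limits the precision. Single arrays were compared without a test. Of each comparison list up to 4 genes with the largest mean difference are named, with Kitl, Cbfb, Fli1 and Prdm16, the listed partners or relatives of the 10 genes. Other genes of these lists, and single marker genes given with signals, were named after their values were seen. Some genes of the comparison and marker lists were not analysed here and are not reported. The genes and lists were chosen with earlier results of these data known. Promoter windows matched all 10 genes by symbol in RefSeq (GRCm38.p6). Alternatives covered the pseudocount, the filter, normalization, the floor, the choice of probe set, robust eBayes and leaving out each leukemia.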

Additional observations from a re-analysis of the deposited data

Results flagged for a closer look

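Prom1, Erg and Gata2 stood out because leukemias moved to opposite sides of normal marrow, each at least 2-fold. The log2 difference of Prom1 was 1.74 with mixed lineage leukemia, -3.36 with proB ALL and -2.47 with B/T BAL. That of Erg was 1.51, -3.43 and -2.73, and that of Gata2 was 1.17, -1.97 and -1.18. Each value is 1 array against the same normal array and was not tested. The difference between both fusions and AF4-MLL alone was tested and did not pass limma's adjusted threshold (adjusted p = 0.151, 0.151 and 0.194).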

How the results depend on the processing

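No paired analysis was possible because each group held 1 array. Over 9 alternatives (8 for Hlf and Flt3, which failed the stricter filter), every at least 2-fold difference of the 10 genes on a single array kept its side of normal marrow. All but Runx1 in B/T BAL (0.95 with the mean over probe sets) stayed at least 2-fold. Counting by the ratio of signals, a measure chosen after seeing the data, left the 6 counts of the 10 genes as they were. The mixed lineage difference ranged from 1.70 to 1.88 for Prom1, 1.40 to 1.72 for Erg and 1.09 to 1.31 for Gata2. Scaling to the 75th percentile moved the median of all genes in mixed lineage leukemia to 0.23, against 0.08. At least 2-fold differences there were 55.3% higher calls, but 43.5% under quantile normalization, 64.4% with that scaling, 34% when filtered at the 75th percentile and 42.6% when dim signals were set to the floor.

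Among all genes, those lower in leukemia numbered 23 with robust eBayes and 15 when the pseudocount was the 50th percentile, against 0, and leaving out 1 leukemia gave 0 to 4 higher and 0 to 109 lower (67 without proB ALL, 109 without B/T BAL). No member passed in any of them. Both fusions against AF4-MLL alone gave 2459 higher and 62 lower genes when dim signals were set to the floor, where equal values leave no spread. In that comparison Cd34 was -0.31 under quantile normalization, against 0.17, and Runx1 was 0.07 under it and 0.11 scaled to the 75th percentile, against -0.09. The cause was not tested. The filter at the 75th percentile left 6 members, with 1 at least 2-fold lower in mixed lineage leukemia and medians of 0.80, -2.44 and -2.47 in the mixed lineage, proB and B/T leukemias. The mixed lineage median was 0.31 scaled to the 75th percentile and 0.00 with the mean over probe sets, where 0 members were at least 2-fold higher in B/T BAL. The proB ALL median was -2.69 with a pseudocount of 0, -1.64 with one at the 50th percentile, -1.49 with no filter, -2.20 under quantile normalization, -1.63 with the floor and -1.83 with the mean over probe sets. The B/T BAL median was -2.63, -1.74, -1.97, -2.02 and -1.72 with a pseudocount of 0, one at the 50th percentile, no filter, the floor and the mean.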
